A study of Mus musculus with 13 samples.

Results

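CTCF sites that carried no cohesin peak were described in NU1 cells, a wild-type mouse urothelial line that became immortal without a transforming agent. Chromatin immunoprecipitation followed by sequencing was done with antibodies against CTCF and against STAG1 and STAG2, the alternative STAG subunits of cohesin, using 25 ug of antibody and 550 ug of chromatin each. Proliferating cells were kept in complete medium, and quiescent cells were grown to confluence and then held in 1 uM rosiglitazone, an activator of the nuclear receptor PPAR gamma, with 0.5 uM erlotinib, an inhibitor of the EGF receptor kinase. Each of the 6 combinations of antibody and state had 2 biological replicates, which gave 12 peak lists, 4 of CTCF and 8 of STAG. All came from 1 cell line, so tests over libraries measure only the spread between these cultures. No expression was measured, so urothelial identity was not checked against marker genes. Quiescence was reached by confluence and 2 drugs together, whose parts cannot be told apart.

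Peaks on chromosomes 1 to 19 of all 12 lists were merged wherever they shared at least 1 bp, which gave 112325 sites. CTCF was called in all 4 CTCF lists at 35630 of them. The members were chosen by these calls as the sites with CTCF in all 4 lists and a peak in none of the 8 STAG lists. There were 6915 of them, 19.4% of the sites with CTCF in all 4 lists. A further 10673 of those sites had a peak in 1 to 7 STAG lists and 18042 had one in all 8. Because CTCF and STAG calls chose the members, their numbers and CTCF strengths are given as descriptions with no test. Having no STAG peak means that no peak passed the authors' threshold there, not that cohesin was absent.

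CTCF is a zinc finger protein that binds a long sequence motif and stops cohesin as it extrudes loops of chromatin. Cohesin is a ring-shaped complex with either STAG1 or STAG2 as a subunit, and most strong CTCF sites of mammalian genomes hold cohesin of both kinds. STAG2 is among the genes often inactivated in bladder cancer, which arises from urothelium. In a population of cells, a weak peak can mean few cells with the protein bound or short binding in many cells, and these cannot be told apart here.

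Few members lay on promoters, so the sequences that could be read are a small and particular set. Of 32851 promoters of 300 bases in the RefSeq table (build GRCm38.p6, 250 bases before to 50 after the start), 59 overlapped a member and 19 held the CTCF summit of one. The 250 bases before the start are printed for 6 of these 19 and, for contrast, for Scnn1g, whose promoter held one of the highest CTCF summits with STAG in all 8 lists. Capitals mark the best match to the 12-letter CTCF core motif with at most 1 mismatch on either strand. Prss41, Gm36358, Gm40632 and Prss38 were chosen to show a core in members, and Tmod4 and Tbx18 to show a member with no such match. Gm36358 was the only one of the 19 with an exact core.
Prss41 (chr17:23844157-23844406, minus strand): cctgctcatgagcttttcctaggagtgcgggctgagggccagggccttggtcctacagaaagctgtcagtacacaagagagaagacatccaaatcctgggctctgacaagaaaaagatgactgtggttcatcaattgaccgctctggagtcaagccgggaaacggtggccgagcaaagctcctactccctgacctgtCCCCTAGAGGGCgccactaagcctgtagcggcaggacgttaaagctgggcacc
Gm36358 (chr1:65112033-65112282, plus strand): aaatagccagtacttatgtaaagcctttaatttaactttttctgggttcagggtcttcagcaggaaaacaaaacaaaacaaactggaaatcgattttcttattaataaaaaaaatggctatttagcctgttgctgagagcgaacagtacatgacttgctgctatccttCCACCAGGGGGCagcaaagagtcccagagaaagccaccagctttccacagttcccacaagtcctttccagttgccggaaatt
Gm40632 (chr10:43675518-43675767, plus strand): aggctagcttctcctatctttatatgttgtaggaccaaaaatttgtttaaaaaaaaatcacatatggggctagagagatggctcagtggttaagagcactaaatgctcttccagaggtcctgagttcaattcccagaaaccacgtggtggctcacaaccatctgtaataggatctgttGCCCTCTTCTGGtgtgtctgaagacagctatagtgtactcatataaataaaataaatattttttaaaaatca
Prss38 (chr11:59375654-59375903, minus strand): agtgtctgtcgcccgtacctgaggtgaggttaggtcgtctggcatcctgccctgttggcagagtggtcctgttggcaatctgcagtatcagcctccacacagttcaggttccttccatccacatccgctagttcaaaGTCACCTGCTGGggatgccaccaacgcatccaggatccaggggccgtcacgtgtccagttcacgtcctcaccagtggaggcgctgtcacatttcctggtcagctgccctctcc
Tmod4 (chr3:95124264-95124513, plus strand): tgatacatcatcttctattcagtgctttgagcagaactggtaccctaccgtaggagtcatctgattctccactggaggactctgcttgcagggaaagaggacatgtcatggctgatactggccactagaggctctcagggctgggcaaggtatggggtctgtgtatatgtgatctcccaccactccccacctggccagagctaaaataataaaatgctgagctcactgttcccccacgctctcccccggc
Tbx18 (chr9:87731261-87731510, minus strand): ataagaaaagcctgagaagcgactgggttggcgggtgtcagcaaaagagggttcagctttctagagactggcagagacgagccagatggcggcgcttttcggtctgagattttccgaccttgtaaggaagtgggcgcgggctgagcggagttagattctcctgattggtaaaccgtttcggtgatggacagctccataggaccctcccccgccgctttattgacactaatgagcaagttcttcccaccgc
Scnn1g (chr7:121734229-121734478, plus strand): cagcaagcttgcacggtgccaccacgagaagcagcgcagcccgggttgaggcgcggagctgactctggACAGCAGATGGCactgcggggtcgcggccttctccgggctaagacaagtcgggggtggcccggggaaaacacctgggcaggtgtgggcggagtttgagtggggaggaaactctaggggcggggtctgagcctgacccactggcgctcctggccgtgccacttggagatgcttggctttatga

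A core within 1 mismatch stood in 9 of the 19 promoters with a member's summit, or 47.4%. Among promoters with the summit of a site that had STAG in all 8 lists the share was 20.8% (526 of 2528), and with STAG in 1 to 7 lists it was 13.2% (58 of 439). Over all promoters it was 4.33% (1421 of 32851). In 7 of the 9 the core lay within 20 bp of the CTCF summit, and the distance ran from 1 bp in Gm6306 to 92 bp in Prss38. Gm36358, an exact match on the plus strand, had its core 14 bp from the summit, and Prss41, a gene of a membrane-anchored serine protease, had it 15 bp away. These matches describe letters in the window and show no binding by themselves.

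The members' promoters had a lower GC, CpG and GC box content than those with CTCF and STAG. Their median GC content was 51.7%, against 66% where STAG was in all 8 lists and 52.7% over all promoters. The median number of CpG dinucleotides was 6, against 26 and 7. With STAG in 1 to 7 lists the medians were 62% GC and 21 CpG. The GC box GGGCGG, searched on both strands, was in 21.1% of the 19, in 72.1% of the promoters with CTCF and STAG and in 35.7% of all. The letters CCGGAAG, a site of ETS factors, were in 5.26%, 18.9% and 8.86% of these sets. The NRF1 letters GCATGCGC were in 0 of the 19, 4.75% and 2.71%. With counts of 1 and 0 in the 19, the ETS and NRF1 shares cannot be set apart from those of the other sets. In GC and CpG content the members' promoters lay near the median of all promoters. Of the 9 with a core 2 were protein-coding, and of the 10 without 7 were. The part of gene type in these contents was not tested.

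CTCF was weaker at the members than at sites shared with cohesin, in every library. The median fold enrichment over background, the authors' value for each peak, was 7.48 and 7.00 in proliferating replicates 1 and 2 and 7.48 and 11.4 in quiescent replicates 1 and 2. At the sites with STAG in all 8 lists it was 22.5, 18.96, 17.2 and 22.4 in the same order. The members' median was thus 33.3% and 36.9% of the other in the proliferating replicates and 43.5% and 50.9% of it in the quiescent ones. As a percentile of fold within each list, the members' median minus that of the sites with STAG in all 8 lists was −37.2, −35.6, −30.9 and −22.4 points. The mean of these differences was −31.5 points, with an SD of 6.64 over the 4 libraries.

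To compare libraries, each site was given its rank of fold among the 35630 sites in each CTCF list, from 0 for the lowest to 100 for the highest. The members' median rank was 22.6 and 24.4 in the proliferating replicates and 30.9 and 32.9 in the quiescent ones. Sites with more STAG lists had higher CTCF. The median of the mean rank was 27.4 with no STAG list, 34.9 with 1, 39.6 with 4, 44.9 with 7 and 68.8 with all 8. The step from 7 to 8 lists was the widest, and the members lay below sites with a single STAG list in all 4 libraries.

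**Figure D1:**
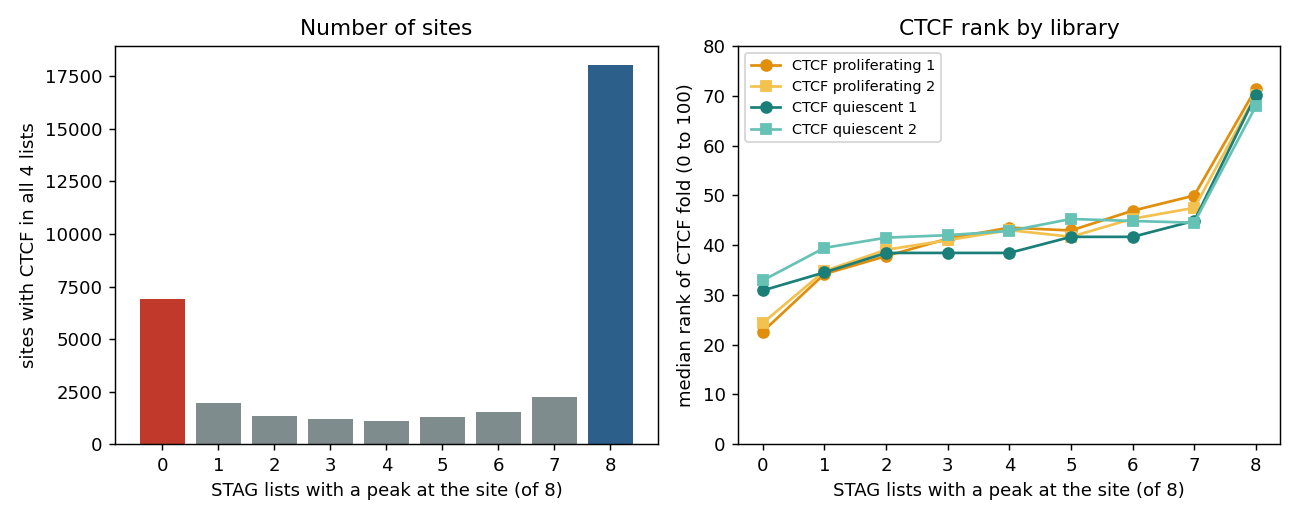
Left, the number of sites with CTCF in all 4 lists (vertical axis) by the number of STAG lists with a peak (horizontal axis, 0 to 8). Right, the median rank of CTCF fold of the same sites (0 to 100) in each CTCF library. The members, at 0, number 6915 and have the lowest median in every library, between 22.6 and 32.9.

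As a share of sites, the members filled the low and middle ranks of CTCF. Sorted by mean rank into 10 groups of 3563 sites, group 1 being the lowest, members were 35.1% of group 1, 40.7% of group 2, 23.6% of group 5, 2.89% of group 8 and 0.449% of group 9, and 0 of group 10. Low CTCF alone did not mark them, since 1298 sites of group 1 had STAG in all 8 lists. Members were also narrow. The median width of a merged site was 592 bp, against 1025 bp with STAG in all 8 lists, where more lists were merged.

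The strongest members reached the fold of good cohesin sites. The 10 of highest mean percentile were in Slmap, Suds3, Abcd4, Ric1, Cndp2, Sec24a, Diaph1 and Snx9 and near Slc46a1 and Trappc6b. Within Slmap, which encodes a membrane-anchored protein of a phosphatase complex, the site at chr14:26436184-26436841 had a CTCF fold of 28.7, 26.4, 45.0 and 48.0 in proliferating replicates 1 and 2 and quiescent replicates 1 and 2. Both quiescent values were above both proliferating ones in fold and in rank, which by rank held at 40.9% of all members. The nearest STAG peak was 28945 bp away. In Suds3, a gene of the Sin3 histone deacetylase complex, the site at chr5:117099553-117100296 had 34.4, 29.9, 31.9 and 25.9, with overlap of the states. The site at chr11:78453552-78454220, 11481 bp from Slc46a1, the folate transporter gene, had 30.3, 24.6, 33.6 and 32.8.

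In Abcd4, a gene of lysosomal cobalamin transport, the site at chr12:84604887-84606413 had 26.9, 45.4, 26.9 and 26.4, so 1 proliferating library stood apart from the other 3. Sec24a, which encodes a cargo subunit of the COPII vesicle coat, held a site at chr11:51703249-51704130 with 33.7, 34.2, 18.6 and 28.8, both quiescent values being lower. Replicates differed more at another strong member. The site in Diaph1, an actin-nucleating formin gene, at chr18:37883334-37884051 had 40.1 and 13.4 in the proliferating replicates and 26.3 and 56.5 in the quiescent ones. In Cndp2, a dipeptidase gene, the site at chr18:84683179-84684153 had 16.8, 27.3, 45.5 and 41.7, both quiescent values being higher.

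**Figure D2:**
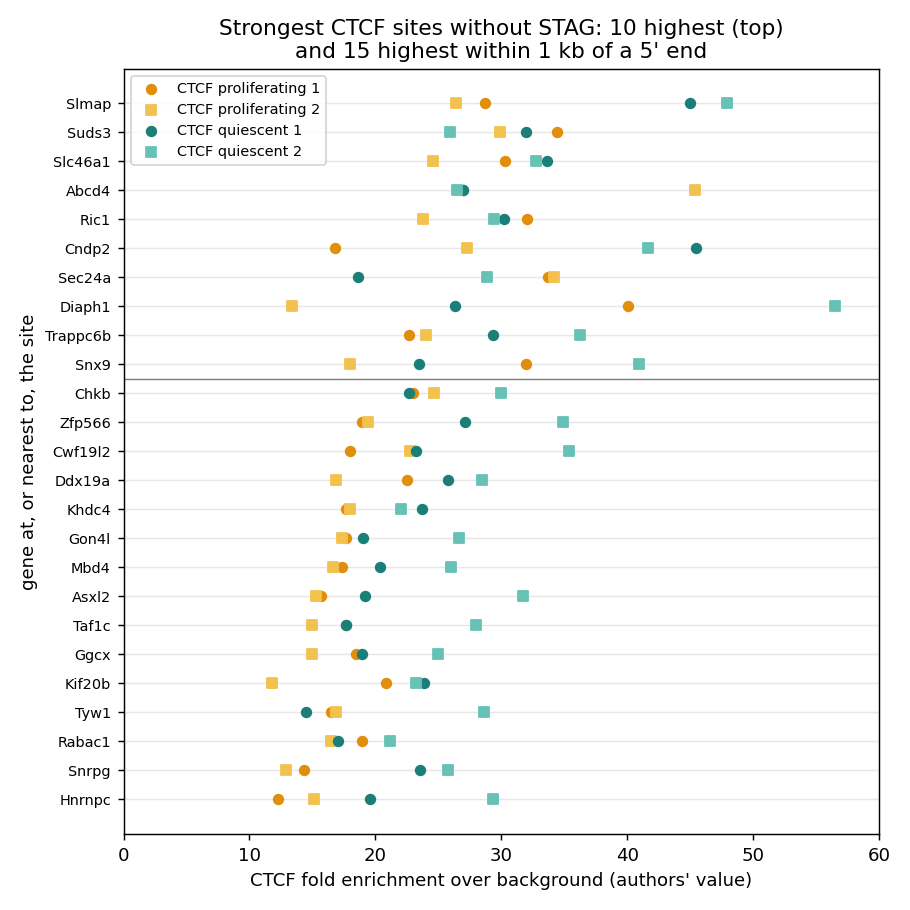
CTCF fold enrichment (horizontal axis, the authors' value) in each of the 4 CTCF libraries at the 10 members of highest mean percentile, above the line, and at the 15 highest members within 1000 bp of the 5′ end of a named protein-coding gene, below it. Each row is a site named for the gene at or nearest to it, and points that coincide overlie each other. The Slmap row runs from 26.4 to 48.0, and replicates of a state lie as far apart as 13.4 and 40.1 at Diaph1.

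The values next to the rule's limits were as follows. The −log10 q-value of a member's weakest CTCF peak was 1.61 at its lowest and 7.55 at the median, and 12 members had one below 2. CTCF in 3 of the 4 lists and no STAG peak was found at 5391 other sites, of which 2049 lacked proliferating replicate 2 and 258 lacked quiescent replicate 2, the longest list. Exactly 1 STAG list had a peak at 1973 sites, most often STAG2 in proliferating replicate 1 (477) and least often STAG2 in quiescent replicate 2 (31). At the median these lone STAG peaks were weak. Their median fold lay between 4.49 and 5.77 in the 8 lists, whose own medians lay between 6.99 and 9.82.

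At the 3 strongest CTCF sites with a single STAG list, the lone STAG peak was not always weak. In Rnf135, a ubiquitin ligase gene, the site at chr11:80199674-80200895 had a CTCF fold of 33.6, 39.1, 55.9 and 61.3 and a STAG2 fold of 8.62 in proliferating replicate 1. In Itpr3, a gene of an inositol trisphosphate receptor, the site at chr17:27120457-27121846 had 44.4, 42.4, 37.9 and 40.4 and a STAG1 fold of 10.5 in proliferating replicate 2. The site 7859 bp from Cygb, the cytoglobin gene, had 34.1, 34.5, 44.4 and 46.1 and a STAG2 fold of 4.31 in proliferating replicate 2. The STAG folds at Rnf135 and Itpr3 were above the medians of their lists, 7.99 and 7.42, and that near Cygb was below its median of 6.99. All 3 had CTCF as strong as the top members and missed the rule by 1 list.

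CTCF sites with a peak in none or 1 of the STAG lists were at gene starts less often than those with more STAG lists. The share that random places would give was not computed. A 5′ end of a RefSeq gene lay within 1000 bp of 290 of the 6738 members not on chromosome 18, or 4.30% (95% Wilson interval 3.84 to 4.82, counting error only). The share was 36.6% for sites with STAG in all 8 lists (6425 of 17557), 13.4% with STAG in 1 to 7 lists, and 23.4% over all sites with CTCF in all 4 lists. Sites with exactly 1 STAG list were close to the members, at 4.71%, so the low share is not particular to members. Taking the CTCF summit in place of the whole site gave 2.48% of the members against 33.7% of sites with STAG in all 8 lists. Only 24 members had their summit within 250 bp of a 5′ end, 0.356% of them, where 3630 of the sites with STAG in all 8 lists did, 20.7% of those. The median distance of the summit from the nearest 5′ end was 13786 bp in members and 6720 bp in sites with STAG in all 8 lists.

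**Figure D3:**
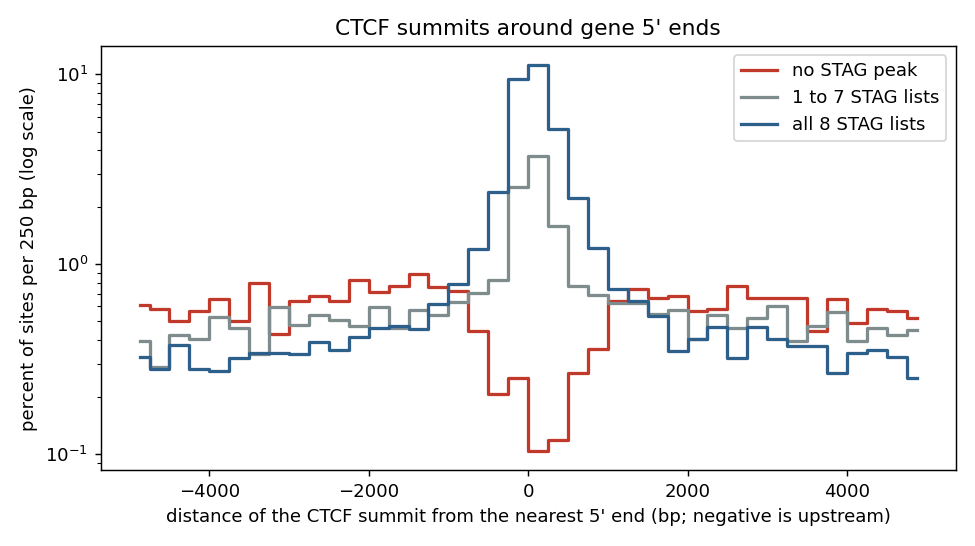
Percent of sites of each class (vertical axis, log scale) with the CTCF summit in each bin of 250 bp around the nearest RefSeq 5′ end (horizontal axis, 5000 bp on each side, negative upstream). Sites with STAG peak at the start, while the members' line dips there, to 24 sites within 250 bp of a start.

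Measured with both ends of protein-coding genes, 548 members lay within 1000 bp of an end, 7.92%, against 41.2% of sites with STAG in all 8 lists and 27.7% of all sites with CTCF in all 4 lists. With the 20000 highest peaks of each list the first shares were 16.6% and 31.6%, so the difference went from −33.2 to −15.0 points. At full list length, sites with exactly 1 STAG list had 9.68%, close to the members. Inside genes, 59.6% of the members overlapped a protein-coding gene, against 70.0% of sites with STAG in all 8 lists. Outside genes and their ends were 36.5% of the members, against 27.7%. The low share at gene starts was found at every strength of CTCF that held enough members. In group 1, the lowest of the 10 groups by CTCF rank, 4.02% of members and 72.7% of sites with STAG in all 8 lists lay at a 5′ end. In group 5 the shares were 4.38% and 39.4%, and in group 8 they were 9.90% and 24.6%. Sites with STAG in 1 to 7 lists had 32.5% in group 1, 9.13% in group 5 and 12.7% in group 8. Weak CTCF at a start was thus usually with cohesin, and weak CTCF away from starts was often without it.

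**Figure D4:**
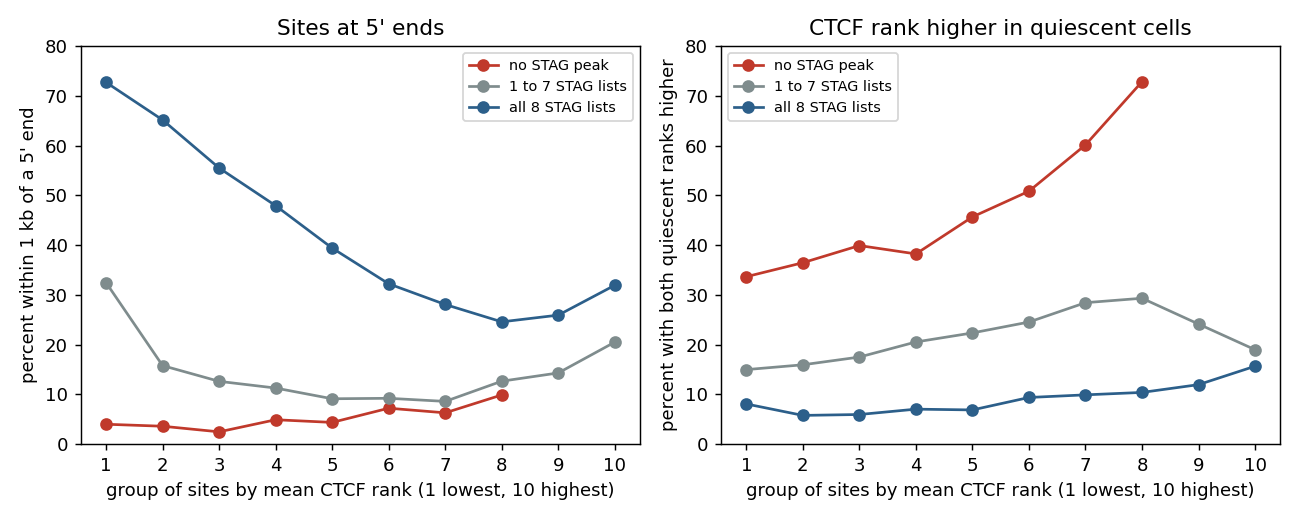
Left, the percent of sites within 1000 bp of a 5′ end in 10 equal groups by mean CTCF rank (1 lowest, 10 highest). Right, the percent of sites whose rank was higher in both quiescent than in both proliferating CTCF libraries. Lines are the 3 classes by number of STAG lists, and points with under 20 sites are left out. The members lie lowest on the left and highest on the right in each group drawn.

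The same contrast was made in each library by itself, with the STAG lists of its own state. CTCF peaks that overlapped no STAG peak of that state were within 1000 bp of a gene end in 7.31% and 7.84% of cases in the proliferating replicates and 7.17% and 5.89% in the quiescent ones. For CTCF peaks that overlapped all 4 STAG lists of the state the shares were 38.5%, 39.9%, 40.4% and 40.4%. The difference was −32.8 ± 1.44 points (SD, n = 4) and had the same sign in 4 of 4 libraries, with an exact two-sided sign-flip permutation p = 0.12, the smallest that 4 libraries allow. The 4 CTCF libraries share STAG lists within a state, and their peaks were split by the kind of calls that chose the members. All 4 had a peak at 35630 sites. Their 4 signs are thus not independent, and the p-value adds no support.

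The few members at gene starts were close to cohesin all the same. Of the 290, 181 had a STAG peak within 1000 bp of the site (62.4%), against 17.3% of all members. Their median gap to the nearest STAG peak was 572 bp, against 4455 bp over all members. The 15 strongest with a named gene show this. Chkb, which encodes choline kinase beta, had a member at chr15:89430267-89431081 with a CTCF fold of 23.0, 24.7, 22.7 and 30.0 and a STAG peak 144 bp off. Zfp566, a zinc finger gene, had one at chr7:30091127-30091755 with 18.97, 19.4, 27.2 and 34.9 and a STAG peak 370 bp off. Both quiescent values of Zfp566 were above both proliferating ones, in fold and in rank. At Chkb the states overlapped in fold, while its quiescent ranks were both higher.

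The gap to cohesin varied among the others. Cwf19l2, a gene of a splicing-associated protein, had a member at chr9:3403022-3403878 with 18.005, 22.7, 23.2 and 35.3, and the nearest STAG peak was 67154 bp away. Ddx19a, which encodes a helicase of messenger RNA export, had one at chr8:110998052-110998741 with 22.5, 16.9, 25.8 and 28.5 and a STAG peak at 88 bp. Snrpg, which encodes a core spliceosomal protein, had one at chr6:86369986-86370603 with 14.4, 12.9, 23.6 and 25.8 and a STAG peak at 14 bp. Hnrnpc, of a nuclear RNA-binding protein, had one at chr14:52104730-52105368 with 12.2, 15.1, 19.6 and 29.4. In Cwf19l2, Ddx19a, Snrpg and Hnrnpc both quiescent values exceeded both proliferating values, in fold and in rank. By rank this held at 42.4% of the members at 5′ ends and at 40.9% of all members. The other members of the 15 were at Khdc4, Gon4l, Mbd4, Asxl2, Taf1c, Ggcx, Kif20b, Tyw1 and Rabac1. Apart from Cwf19l2 and Tyw1 (10348 bp), the gap to a STAG peak was between 14 and 581 bp in the 15.

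Over all members the distance to cohesin ranged widely. The nearest STAG peak of any list was within 100 bp of 62 members (0.897%), within 1000 bp of 1198 (17.3%) and within 10000 bp of 4943 (71.5%), and it was beyond 100000 bp at 88. The nearest site with CTCF in all 4 and STAG in all 8 lists was at a median of 15467 bp. The next member was at a median of 34873 bp. The 88 most isolated members were inside a protein-coding gene in 28.4% of cases, against 59.6% of all members, and 66.6% where the gap was 10000 to 100000 bp. Their median ranks of 19.7, 21.3, 26.4 and 35.2 were close to those of members with a STAG peak within 1000 bp, 24.2, 25.6, 32.0 and 32.7.

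Between the states, CTCF at the members moved up in rank in quiescent cells. The mean of the 2 median ranks was 23.5 in proliferating and 31.9 in quiescent cells, a rise of 8.40 points. Sites with STAG in all 8 lists went from 70.8 to 69.0, and those with STAG in 1 to 7 lists from 41.7 to 41.1. Both quiescent libraries gave the members a higher median than both proliferating ones, the sites with STAG in all 8 lists separated narrowly the other way (71.4 and 70.1 against 70.1 and 67.9), and those with 1 to 7 STAG lists overlapped. In fold, the members' median was 7.48 and 7.00 in proliferating and 7.48 and 11.4 in quiescent replicates. Only quiescent replicate 2, the longest list, was thus above both proliferating replicates. At sites with STAG in all 8 lists the median fold was 22.5 and 18.96 against 17.2 and 22.4. The members entered through CTCF calls in all 4 of these libraries, so the rise in rank is a description.

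**Figure D5:**
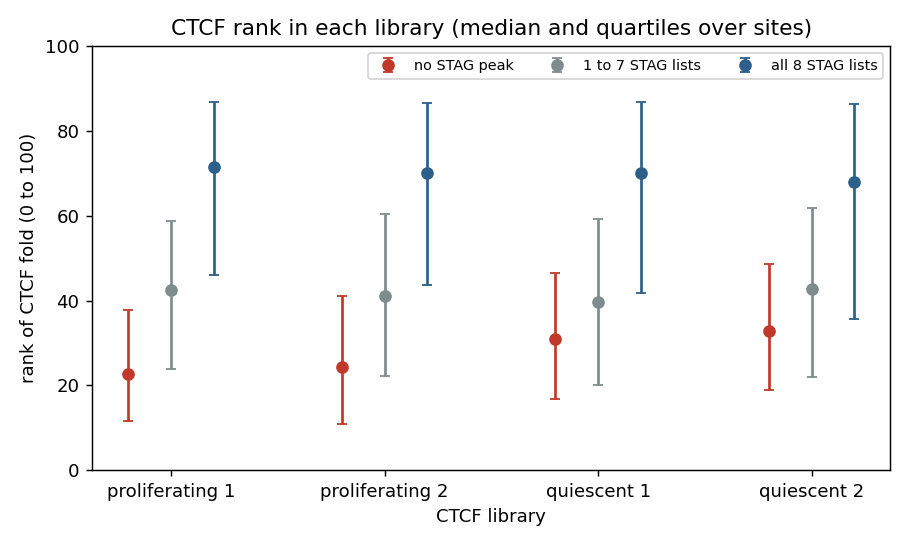
Rank of CTCF fold among the 35630 sites (vertical axis, 0 to 100) in each CTCF library, as the median (point) and quartiles over sites (bars, not an error of the median) for the 3 classes. The members' median rises from 22.6 and 24.4 in proliferating to 30.9 and 32.9 in quiescent cells, while that of sites with STAG in all 8 lists stays between 67.9 and 71.4.

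Site by site, 2829 members had a higher rank in both quiescent libraries than in both proliferating ones, or 40.9%, and 788 had a lower rank in both, 11.4%. Over all sites with CTCF in all 4 lists the shares were 19.8% higher and 20.7% lower. With STAG in all 8 lists they were 10.5% and 22.5%. The share that was higher fell with each added STAG list, from 40.9% with 0 to 31.1% with 1, 20.1% with 4, 13.7% with 7 and 10.5% with 8. It was higher in members than in the other classes in each of groups 1 to 9 of CTCF rank, and against sites with STAG in all 8 lists it was 33.7% to 8.09% in group 1 and 72.8% to 10.4% in group 8, where 103 members lay.

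The rise is measured against the other sites. Ranked among the 6915 members alone, which removes any common shift by construction, 1634 were higher in both quiescent libraries (23.6%) and 1416 lower. Place in the genome moved little with it. The share that was higher was 42.4% at 5′ ends, 41.8% in genes away from them and 39.4% outside genes. With a STAG peak within 1000 bp it was 41.9%, and with none within 100000 bp it was 33.0% of 88 members.

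The 5 largest rises of mean rank began from low ranks, as rises of that size must. A site 75070 bp from Tln2, a talin gene, at chr9:67141201-67142015 had a CTCF fold of 4.94 and 6.92 in proliferating and 12.9 and 24.2 in quiescent replicates. A site 4334 bp from Hesx1, a pituitary homeobox gene, at chr14:27006663-27007269 had 4.49, 5.99, 12.5 and 19.96. The others were near Osbpl11 and Rab11fip1 and in Elmo1, with proliferating folds of 3.96 to 6.99 and quiescent folds of 9.89 to 23.5. The 5 were selected for ranks that did not overlap between the states.

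The 5 largest falls began from higher ranks, as falls of that size must. In Cacna1c, which encodes a voltage-gated calcium channel subunit, the site at chr6:118605929-118606546 had 15.5 and 18.5 in proliferating and 4.99 and 6.99 in quiescent replicates. The site 26404 bp from Zfp42, a pluripotency gene also called Rex1, at chr8:43333413-43334022 had 19.5, 22.0, 5.99 and 9.98, and its nearest STAG peak was 154759 bp away. Mindy4, a deubiquitinase gene, held a site with 13.97, 14.97, 5.49 and 5.49, and Bves, a Popeye family gene, one with 12.0, 15.0, 4.99 and 5.49. The fifth was 15206 bp from Vax2, an eye homeobox gene, with 13.97, 10.5, 3.001 and 3.67. These 5 too were selected for ranks without overlap.

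The count of CTCF peaks without STAG was also higher in quiescent lists. In proliferating replicates 1 and 2, 32.0% and 31.9% of CTCF peaks overlapped no STAG peak of that state, and in the quiescent replicates 39.3% and 52.1% did. The means were 32.0% ± 0.0429 and 45.7% ± 9.05 (SD, n = 2 each). The difference was 13.7 points, given with no test because CTCF and STAG calls also chose the members. It was 7.31 points without quiescent replicate 2, whose list of 70216 peaks was the longest, 20.1 points without quiescent replicate 1, and 4.07 points with the 20000 highest peaks of each list. List length moved with state as well. The quiescent STAG lists used held 33745 to 37751 peaks and the proliferating ones 38264 to 49647, and the part of this in the difference was not tested.

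Members were spread over the chromosomes, from 16.2% of the sites with CTCF in all 4 lists on chromosome 7 to 21.8% on chromosomes 5 and 11. Of 2092 windows of 1 Mb with such a site, 1553 held a member and the median number was 2. The fullest was chr10:128000001-129000000, with 33 members among 87 sites. It holds 51 protein-coding genes, among them Cdk2 (a cell cycle kinase), Timeless and Prim1 (replication), Erbb3 (a receptor of the EGF receptor family) and Stat2 (interferon signalling). Next came chr11:97000001-98000000, with 26 of 91 sites around Kpnb1, Tbx21, Pcgf2 and Lasp1, and chr3:89000001-90000000, with 23 of 84 sites around Muc1, Efna1, Shc1, Adar and Cks1b. All 3 are dense in genes and in CTCF.

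Of 20661 protein-coding genes, 590 had a member within 1000 bp of an end (2.86%), while 7927 (38.4%) had a site with STAG in all 8 lists there. Gene groups were read against these shares. Cytosolic ribosomal protein genes had a member at 9 of 73 (12.3%), among them Rpl7a, Rpl13, Rpl19, Rpl27, Rpl37, Rpl3 and Rpl35a. A site with STAG in all 8 lists was at 37 of the 73 (50.7%), also above the share of all genes. Rpl37, of the large ribosomal subunit, had a CTCF fold of 12.8, 12.995, 16.7 and 20.4 at chr15:5119578-5120182, and Rpl7a, which shares its site with Med22, had 13.8, 10.002, 18.96 and 20.3. At both of these sites the 2 quiescent folds exceeded the 2 proliferating ones. So did the ranks, as at 40.9% of all members.

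Genes of the G2/M phase had a member at 3 of 42 (7.14%). Kif20b, a cytokinesis kinesin gene, had a fold of 20.9, 11.8, 23.9 and 23.3, Kif14, another such kinesin gene, had 10.8, 13.96, 12.5 and 23.7, and Mad2l1, of the spindle checkpoint, had 12.3, 10.8, 15.6 and 16.03. The states overlapped at Kif14. At Kif20b and Mad2l1 both quiescent values were higher in fold and in rank, which by rank held at 40.9% of all members. The 14 DREAM and MuvB subunit genes, which repress cell cycle genes at rest, had a member at 0 and a site with STAG in all 8 lists at 11, and the 50 G1/S genes had 0 and 21. Inhibitors of CDKs and growth arrest genes had 0 of 21 and 18, and replication-dependent histone genes 0 of 63 and 50. The member counts of each of these groups, G2/M included, are too small to set apart from the 2.86% of all genes.

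Genes tied to the treatment and the tissue had members on counts of 0 to 2 in each group. These are too few to set apart from the share of all genes. Among 24 PPAR gamma targets of lipid metabolism, Plin4, a lipid droplet coat gene, had a site with 15.0, 15.0, 7.98 and 8.48, lower in quiescent cells without overlap, and Lipe, the hormone-sensitive lipase gene, one with 5.99, 4.99, 6.99 and 8.98. Of 32 genes of the EGF receptor and MAPK response only Tgfa, a ligand of that receptor, had a member (3.13%), with 14.3, 11.6, 8.19 and 21.6, and 27 had a site with STAG in all 8 lists. Of 27 urothelial differentiation genes only Epcam, an epithelial adhesion gene, had a member, with 9.48, 11.2, 9.48 and 14.2, and of 16 basal urothelium genes none did. Sites with STAG in all 8 lists were at 8 PPAR gamma targets, 20 urothelial differentiation genes and 5 basal urothelium genes.

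Most gene clusters known for CTCF had counts too small to set apart from the 2.86% of all genes. The 57 clustered protocadherin genes had 0, the 44 imprinted genes 0 and the 21 genes of cohesin, its regulators and CTCF 0. Hox genes had 1 of 39, at Hoxd10, with a low fold of 7.34, 5.501, 6.001 and 8.34. Keratin genes had 1 of 53, at Krt222. Olfactory receptor genes had 2 of 1104, at Olfr90 and Olfr1441, or 0.181%, below the share of all genes. Sites with STAG in all 8 lists were as rare there, also at 2 of 1104. Zinc finger protein genes had 18 of 360 (5.00%). Of these Zfp346 had a site with 20.9, 15.6, 9.73 and 13.1 and Zfp579 one with 15.5, 7.48, 7.48 and 12.0. Genes of other cell types had 0 of 17 for neurons, 0 of 14 for immune cells and 0 of 13 for fibroblasts, and among 9 testis genes bound by CTCFL, a paralogue of CTCF, only Tnp2 had a member.

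At the 19 promoters with a member's summit, the change between states was split by the core motif, a split made after the values were seen. Among the 9 with a core, 4 were higher in both quiescent libraries and 0 lower, with a median change of mean rank of 10.3 points. Among the 10 without, 0 were higher and 7 lower, with a median of −18.1 points. The 9 and the 10 differed in gene type as well, since 2 of those with a core and 7 of those without were protein-coding. The part of gene type in the split was not tested. At Prss41, with a core, the CTCF fold was 7.00 and 8.68 in proliferating and 15.1 and 17.7 in quiescent replicates, and at Gm40632, also with a core, it was 5.99, 5.99, 9.48 and 13.97. Tbx18, a mesenchymal T-box gene whose promoter had no core, had 17.5, 13.5, 8.98 and 13.97, and Tmod4, a muscle tropomodulin gene without one, 14.97, 20.96, 9.48 and 15.97. Their ranks were lower in both quiescent libraries, while their folds overlapped between the states. Where STAG was in all 8 lists, 11.0% of 484 promoter sites with a core were higher and 13.02% lower, against 7.88% and 23.5% of 1764 without. With STAG in 1 to 7 lists, 8.77% of 57 with a core were higher and 26.3% lower, against 8.63% and 26.5% of 336 without, so that class did not show the split. Sites at promoters are few here, and no test was made.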

How the data were processed

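The authors deposited 1 narrowPeak list per library. Per the submitters' processing notes, build mm10 was used and the software named is MACS2, BWA, HOMER, Picard and bcl2fastq; versions are not given in the sources used here. Each deposited list gives a fold over background (a ratio), a −log10 p-value, a −log10 q-value and positions (other columns: start, end, summit offset), all the authors' values. The deposited score column, 10 times the −log10 q-value in whole numbers, was not used. Fold and q only ranked, described or filtered peaks within a list. A further sample, titled input but labelled IgG, was not analysed here, so which control the folds refer to was not settled. Read depth is unknown, so no floor was set. The lists held 33745 to 70216 peaks on chromosomes 1 to 19.

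Sites were merged, classed and placed with Python 3.11.15, pandas 2.3.3, numpy 2.4.6 and scipy 1.17.1, and figures drawn with matplotlib 3.10.9. Merging, ranks and both exact tests were tested on simulated data. A site's position is the whole site, and its fold in a list that of its highest peak. Gene ends and 5′ ends came from RefSeq tables of GRCm38.p6, whose coordinates are those of mm10. Chromosome 18 was left out of the 5′ end counts. Summits are the median CTCF summit of a site. The table of 27025 genes with promoters also gave the sequences. Motif and window choices on member sites themselves would need the genome, which was not used here.

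Sites named are the 10 members of highest mean CTCF percentile, the 15 highest at 5′ ends of named protein-coding genes, the 5 largest rises and 5 largest falls of rank without overlap of states, up to 4 genes for each of 21 lists, the 3 fullest windows of 1 Mb and the 3 strongest sites with 1 STAG list. The promoter examples and remaining ribosomal and zinc finger names were added by what was found. One site that this rule names is not reported here. The members, lists and rules were chosen with earlier results of these data known. Alternatives were another overlap, stricter q, equal list lengths, other windows, ranks by −log10 q, libraries left out and the replicate block.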

Additional observations from a re-analysis of the deposited data

Results flagged for a closer look

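The sex chromosomes were outside the comparisons and held sites of the same kind. On the X chromosome 91 of 440 sites with CTCF in all 4 lists had no STAG peak, or 20.7%, and 52 of the 91 were higher in both quiescent libraries. On the Y chromosome there were 5 of 21, none of them higher in both. How many of all 440 sites on X and all 21 on Y were higher in both was not measured. The counts of higher sites therefore cannot show whether a rise was particular to sites without a STAG peak. These counts stand out only as signal in data that the comparisons did not use, and the lists hold no control sample to set them against.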

How the results depend on the processing

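Over 80 alternatives of 6 results no direction was reversed, but several sizes changed. With the 20000 highest peaks of each list there were 1512 members in place of 6915. Those peaks also gave a quiescent minus proliferating share of 4.07 points in place of 13.7, and a −log10 q of at least 5 in the CTCF lists alone gave 5174 members. Members at gene ends were fewer by 33.2 points than sites with STAG in all 8 lists; the difference was −30.3 points at a −log10 q of at least 5, −15.0 points with 20000 peaks (16.6% against 31.6%), −30.5 points with a window of 2000 bp and −30.5 points by the CTCF summit. Members higher in both quiescent libraries numbered 1634 when ranked among themselves. Leaving out 1 library at a time gave 6948 to 8985 members, percentile differences of −35.1 to −31.0 points, gene end differences of −34.1 to −32.3 points between classes and −33.3 to −32.2 points within libraries, differences in the share of CTCF peaks without STAG of 7.31 to 20.1 points, and 3720 to 4867 members higher in quiescent cells. The last counts rest on 3 CTCF libraries, where more sites separate: 51.6% to 55.6% of members against 33.1% to 36.3% of all sites.

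With the replicate number as a block the quiescent minus proliferating share stayed at 13.7 points, as it did with the numbers crossed. The numbers did not pair the libraries, since same-numbered deviations correlated at −0.0712 for STAG1, −0.0779 for STAG2 and −0.360 for CTCF. The summit, leave-one-out rank, stricter-q rank and crossed alternatives were chosen after seeing the data. The cause of these shifts was not tested.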

Other observations

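B2 elements are a family of short interspersed repeats of rodents, some copies of which carry a CTCF motif. The 9 letters CTCTTCTGG of that family, which overlap the CTCF core on the opposite strand, were looked for on both strands after the printed promoters had been seen. They stood in 5 of the 19 promoters with a member's summit (26.3%), in 1.82% of the 439 with a summit and STAG in 1 to 7 lists, in 0.791% of the 2528 with STAG in all 8 lists and in 1.04% of all 32851. Among promoters that also held the core, the counts were 4 of 9, 5 of 58, 10 of 526 and 92 of 1421. The 4 were at Gm6306, Gm39362, Gm40632 and Gm36208, and the fifth, without a core, was at Gm14161. None of the 5 is listed as protein-coding. Gm40632 and Gm36208 were higher in rank in both quiescent libraries, Gm14161 was lower in both, and Gm6306 and Gm39362 were neither. No repeat annotation was used here, so repeat content of the members as a whole was not measured.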
